A study of Homo sapiens with 6 samples.

Results

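The genes described here are those of the La and La-related protein (LARP) family and the main poly(A)-binding proteins: LARP1, LARP1B, LARP4, LARP4B, LARP6, LARP7, SSB, PABPC1, PABPC4 and PABPN1. They were chosen by symbol, each matched exactly 1 row, and they make up 10 of the 48114 rows of the table. RNA was sequenced from TC-71, a line of Ewing sarcoma cells (a tumour of bone and soft tissue in the young) labelled wild type, so that 1 cell line stands for the disease. One group of 3 libraries came from cells exposed for 16 h to BEZ235, which blocks both PI3K, a kinase that signals from growth factor receptors, and mTOR, a kinase that controls growth and translation. The other group of 3 came from cells given the solvent dimethyl sulfoxide (DMSO). The labels call the 3 replicates of each group biological, and no dose of BEZ235 stands in the sources used here.

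Proteins of the LARP family share an RNA-binding fold, the La module, and differ in the RNA they hold. La itself (gene SSB) protects the uridine-rich ends of new RNA polymerase III transcripts, and LARP7 holds the 7SK RNA that keeps the transcription kinase P-TEFb inactive. LARP1 binds mRNAs that begin with a terminal oligopyrimidine (TOP) tract, among them those of ribosomal proteins, and is a substrate of mTOR complex 1. LARP4 binds poly(A), both LARP4 and LARP4B bind the cytoplasmic poly(A)-binding protein, and LARP6 binds a stem-loop of collagen mRNAs. PABPC1 and PABPC4 coat poly(A) tails in the cytoplasm, where they act in translation and mRNA turnover, and PABPN1 coats new tails in the nucleus. PABPC1 and PABPC4 mRNAs are themselves known TOP mRNAs.

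Because LARP1 reads the first bases of an mRNA, the starts of the members are shown first. RefSeq promoter entries (GRCh38) were used for 8 of 10 members, and the starts of PABPC1 and PABPC4 were not analysed here. Where several starts were listed, the one nearest the 5′ end of the deposited row was used. The windows hold 15 bases before and 15 bases from the first transcribed base, 5′ to 3′. Capitals mark that first base or, where one was found, a run that begins with C and goes on with at least 4 bases that are C or T, beginning within 5 bases either side of the start.
LARP6: ccgccccctcgtcgcAgtcgctgccgaccg
LARP1B: cacgcctccgcgggcAgttaccagctttgg
LARP4B: gggccccggaagtggGagctgtgtgttctc
LARP4: tgacggcaggggaggAgccgggtccactgc
LARP1: tccagctccgccgccAgaggctgagtcatc
LARP7: aaaacgttgtcgctcAtcctatgacgcgaa
PABPN1: cgggcggcgggccccAgtctgagcggcgat
SSB: gccgggacggtccccatCTTCTTggagcgc
The windows lie at chr15:70854143-70854172 (minus strand) for LARP6, chr4:128061297-128061326 (plus) for LARP1B, chr10:931691-931720 (minus) for LARP4B, chr12:50400870-50400899 (plus) for LARP4, chr5:154682964-154682993 (plus) for LARP1, chr4:112637128-112637157 (plus) for LARP7, chr14:23321442-23321471 (plus) for PABPN1 and chr2:169798856-169798885 (plus) for SSB. Of these 8 starts only that of SSB held such a run, 6 bases long from the third transcribed base. The same search found a run at 19.7% of 35095 RefSeq starts and at 68.2% of 85 starts of genes named as ribosomal proteins. The SSB start used lies 6952 bases inside the deposited row, so a transcript from the row's own 5′ end was not examined.

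Values are the authors' normalized counts, which are gene counts divided by 1 factor per library. The libraries held 184790722 to 233767211 recovered reads. DMSO replicate 1 stood apart by the mean chi-square per gene, computed on reads. This mean was 150 and 111 between DMSO replicate 1 and the other DMSO libraries. It was 40.0 between those and 17.1 to 41.2 among the BEZ235 libraries. A chi-square grows with the number of reads, so the most abundant genes weigh most in it. Leaving out DMSO replicate 1 gave 15181 called genes and leaving out DMSO replicate 2 gave 15898, against 15863 with all libraries. Without DMSO replicate 1 all 10 members were still called. The first principal component took 73.3% of the variance and separated the groups. Of 9 Ewing sarcoma markers all were above the filter, with CD99 at 208374 ± 2750 normalized counts in BEZ235 libraries and 263162 ± 3650 in DMSO libraries (SD, n = 3 each). Of these 9 markers 4 were higher, 3 lower and 2 not called in BEZ235. Mitochondrial genes took 0.507 to 0.706% of normalized counts with BEZ235 and 2.82 to 3.55% with DMSO, and the part of this difference in the results below was not tested. Of 8 blood markers 5 averaged under 10, with CD3E and HBB at 0, and 4 of 6 endothelial markers also did. Their part in the results was not tested, and the summed normalized counts of the blood markers, mostly CD68, were 2307 to 2429.8 with BEZ235 and 2539 to 4001 with DMSO. Of 8 fibroblast markers 7 were tested, 2 higher (COL3A1, DCN), 3 lower (ACTA2, LUM, COL1A1) and 2 not called, and their sum was 36239 to 38519 with BEZ235 and 44515 to 47473 with DMSO. ACTA2, a smooth muscle actin, had 2219 ± 97.4 normalized counts with BEZ235 and 15181 ± 1293 with DMSO, and the proteoglycan LUM had 135 ± 8.83 with BEZ235 and 863 ± 149 with DMSO. Of 7 epithelial markers 6 were tested, 2 higher (MUC1, EPCAM), 1 lower (KRT8) and 3 not called, with KRT19 at 0, and their sum was 2779 to 2978 with BEZ235 and 2459.6 to 2482 with DMSO. MUC1 had 1442 ± 83.6 with BEZ235 and 482 ± 72.4 with DMSO, and KRT8 had 638 ± 37.7 with BEZ235 and 1263 ± 46.8 with DMSO. Of the blood markers tested 2 were higher and 1 lower, and both endothelial markers tested were higher. Summed endothelial markers were 249 to 312 with BEZ235 and 99.2 to 140.4 with DMSO.

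All 10 members passed the filter on low values, and all 10 differed between BEZ235 and DMSO (limma on log2(normalized count + 1), Benjamini-Hochberg adjusted p under 0.05), 6 higher and 4 lower in BEZ235. These counts have to be read against the whole table, where 66.3% of 23923 tested genes were called, 33.1% higher and 33.2% lower. Among the 7960 genes at least as abundant as the lowest member, 80.9% were called. The groups did not overlap for 10 of 10 members, against 70.9% of tested genes and 83.3% of those as abundant as the lowest member. edgeR and DESeq2, run on the recovered reads, also called all 10, against 65.8% and 65.7% of tested genes. A change of at least 2-fold was called for 3 members, LARP6, LARP1B and PABPC4, against 26.3% of tested genes. The median size of the log2 fold change was 0.63 over the members and 0.60 over all tested genes, and the median signed value was 0.23 against 0.00. The 3 poly(A)-binding protein genes were all higher, while the 7 La and LARP genes were divided into 3 higher and 4 lower. In bulk RNA, fewer cells of a type and less RNA per cell cannot be told apart.

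**Figure D1:**
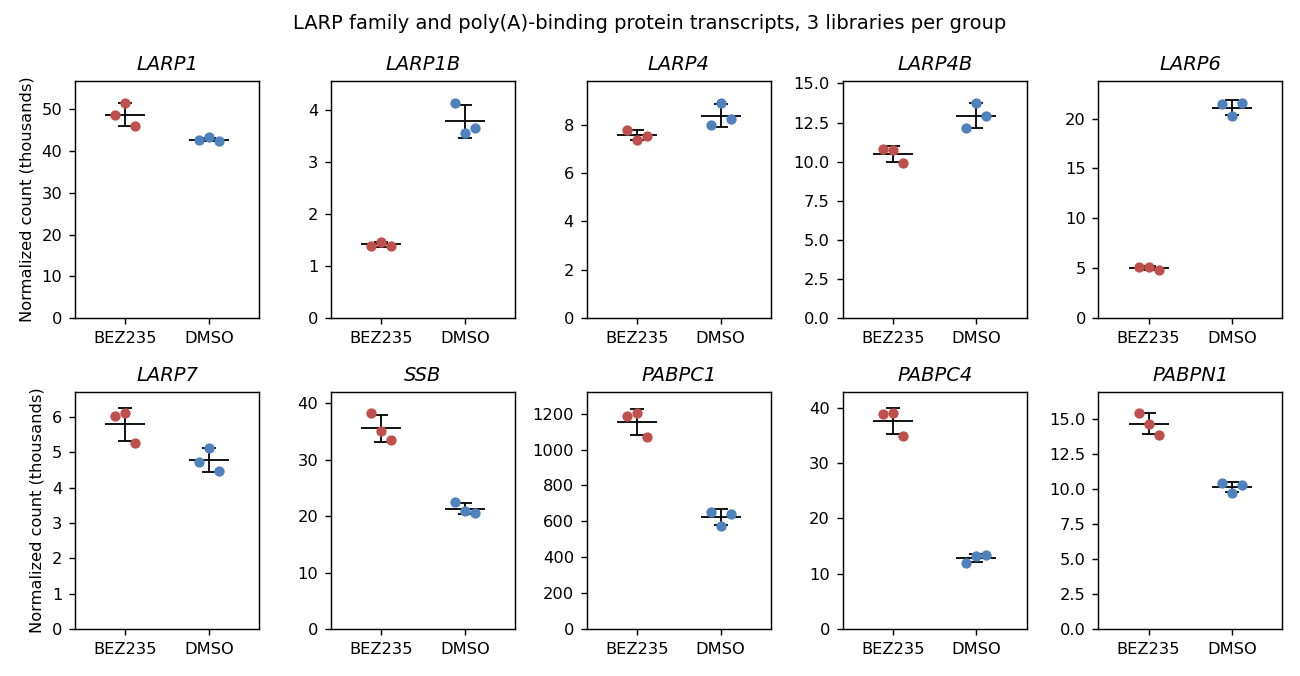
Normalized counts (vertical axes from 0, each gene on its own scale) for the 10 genes in 3 BEZ235 and 3 DMSO libraries. Points are libraries, wide bars the mean and error bars the SD; LARP6 stood between 4850.1 and 5172 with BEZ235, and no gene had overlapping groups.

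LARP6, the collagen mRNA-binding member, had the largest change of the 10. It lies on hg38 chromosome 15 from 70829157 to 70854159. Its normalized counts were 5172, 5095 and 4850.1 with BEZ235, against 21461, 20229.6 and 21596 with DMSO. Every BEZ235 library stood far below every DMSO library, at a mean of 23.9% of the DMSO mean. The log2 fold change was -2.07 (SE 0.052, limma adjusted p = 3e-10), and 4.76% of tested genes had a lower value. Over 18 alternative settings it ran from -2.16 to -2.01.

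LARP1B, the less studied paralog of LARP1, also fell by more than 2-fold. Its row on chromosome 4 (128061286 to 128222926) had 1396, 1472 and 1385 normalized counts with BEZ235, against 4145, 3559 and 3652 with DMSO. Again the groups were well apart, and LARP1B fell by 1.41 on the log2 scale (SE 0.074; limma adjusted p = 3.44e-08). LARP1 itself went the other way and by little. Its row on chromosome 5 (154682979 to 154817605) had 48549.9, 51612 and 46019.95 normalized counts with BEZ235 and 42553, 43277 and 42438 with DMSO. The 3 BEZ235 libraries were all above the 3 DMSO libraries but varied more among themselves. The log2 fold change was 0.19 (SE 0.055, limma adjusted p = 0.011, 95% interval 0.07 to 0.31). This call was lost with total-count scaling (0.09, adjusted p = 0.16) and without BEZ235 replicate 2 (0.14, adjusted p = 0.0564), and quantile normalization gave 0.30; over all alternatives the adjusted p ran from 8.2e-05 to 0.16.

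The pair LARP4 and LARP4B was lower in both members, by small amounts. LARP4B on chromosome 10 (806914 to 931705) had 10794, 10744 and 9905 normalized counts with BEZ235, against 12134, 13776 and 12944 with DMSO. All BEZ235 values lay below all DMSO values, and the log2 fold change was -0.30 (SE 0.061, limma adjusted p = 0.00111). LARP4 on chromosome 12 (50400865 to 50480005) had 7782, 7388 and 7536.5 with BEZ235 and 7981, 8916 and 8247 with DMSO. Its groups were separated by a narrow gap, and LARP4 fell by 0.15 on the log2 scale (SE 0.057; limma adjusted p = 0.0417; 95% interval of the log2 fold change -0.27 to -0.02). The LARP4 call was the least secure of the 10, since it was lost under 10 of 18 alternatives. Leaving out BEZ235 replicate 1, 2 or 3 gave an adjusted p of 0.0603, 0.129 or 0.0836, and leaving out DMSO replicate 2 or 3 gave 0.108 or 0.0842. The adjusted p ran from 0.0159 to 0.129 over all alternatives; total-count scaling moved the log2 fold change to -0.24.

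The 2 members that hold small RNA polymerase III transcripts rose. SSB on chromosome 2 (169791919 to 169812064), the La gene, had 38239, 35040.3 and 33478 normalized counts with BEZ235, against 22419, 20974 and 20632 with DMSO. The groups were far apart compared with their spread, and the log2 fold change was 0.74 (SE 0.061, limma adjusted p = 1.22e-06). LARP7 on chromosome 4 (112637126 to 112657586) had 6036, 6109 and 5267 with BEZ235 and 4717, 5138 and 4477 with DMSO. Here the lowest BEZ235 library stood close to the highest DMSO library. The log2 fold change was 0.28 (SE 0.074, limma adjusted p = 0.00628), and with total-count scaling it was 0.18 and no longer called (adjusted p = 0.0538; 0.000974 to 0.0538 over all alternatives).

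Among the poly(A)-binding proteins PABPC4 rose most. Its row on chromosome 1 (39560813 to 39576790) had 38769, 38964.5 and 34896 normalized counts with BEZ235, against 11916, 13101 and 13395 with DMSO. The lowest BEZ235 library was well above the highest DMSO library. The log2 fold change was 1.55 (SE 0.064, limma adjusted p = 6.21e-09), a 2.93-fold rise that 7.11% of tested genes exceeded.

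PABPC1, the main cytoplasmic form, had 1187858, 1202208 and 1072323 normalized counts with BEZ235 and 652749.6, 572576 and 643054 with DMSO, on chromosome 8 (100702915 to 100722711). It was the most abundant member in every library and took 0.534 to 0.555% of all normalized counts with BEZ235, against 0.300 to 0.330% with DMSO. Its log2 fold change was 0.89 (SE 0.089, limma adjusted p = 5.48e-06). Quantile normalization reduced it to 0.45 (adjusted p = 3.02e-05), still called.

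PABPN1, the nuclear form that stimulates poly(A) polymerase, had 15398, 14653 and 13881 normalized counts with BEZ235, against 10406, 9695 and 10271 with DMSO, on chromosome 14 (23321457 to 23326163). All BEZ235 libraries were higher. The log2 fold change was 0.53 (SE 0.056, limma adjusted p = 8.37e-06).

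**Figure D2:**
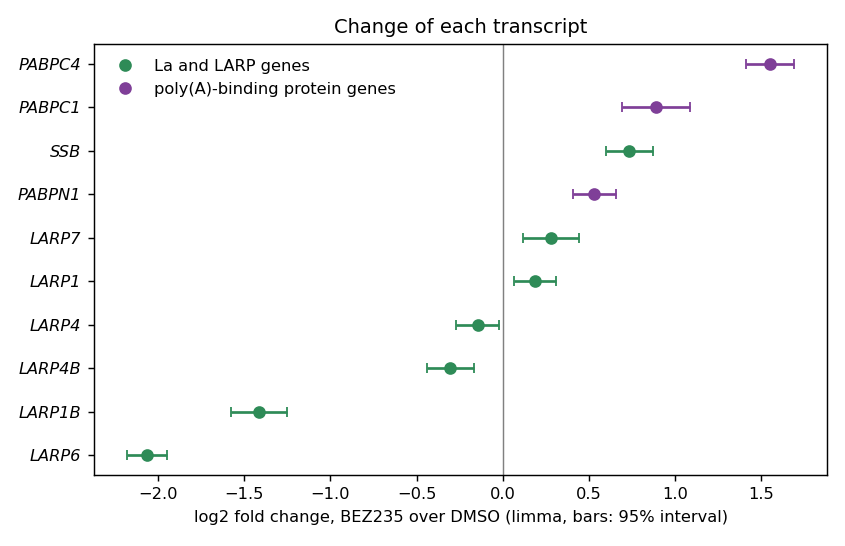
Log2 fold change of each gene, BEZ235 over DMSO (horizontal axis), as limma estimates (points) with 95% intervals (bars), for La and LARP genes in green and poly(A)-binding protein genes in purple. The genes run from PABPC4 at 1.55 to LARP6 at -2.07, and the intervals of LARP1 (0.07 to 0.31) and LARP4 (-0.27 to -0.02) come nearest to 0.

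Ratios within a library show how related transcripts moved against each other without depending on the scaling of libraries. For the 6 pairs compared, the exact permutation test of 3 against 3 libraries cannot give a two-sided p below 0.1, and every pair reached that value (adjusted over the pairs, 0.1), with no overlap between groups. The LARP1B to LARP1 ratio of normalized counts was 0.0291 ± 0.000857 in BEZ235 libraries and 0.0886 ± 0.00789 in DMSO libraries (SD, n = 3 each), a difference in log2 ratio of -1.60. LARP1B was thus rarer beside its paralog in every BEZ235 library. The LARP4B to LARP4 ratio was 1.39 ± 0.070 with BEZ235 and 1.54 ± 0.0245 with DMSO, a log2 difference of -0.16.

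PABPC4 was more abundant relative to PABPC1 in every BEZ235 library. The PABPC4 to PABPC1 ratio was 0.0325 ± 0.000114 with BEZ235 and 0.0207 ± 0.00232 with DMSO, a log2 difference of 0.66, and its spread was narrower in the BEZ235 libraries. The PABPN1 to PABPC1 ratio was 0.0127 ± 0.000442 with BEZ235 and 0.0163 ± 0.000564 with DMSO (log2 difference -0.36), so the nuclear form was lower relative to PABPC1 in every BEZ235 library. LARP7 was likewise lower relative to SSB, with ratios of 0.163 ± 0.00967 with BEZ235 and 0.224 ± 0.0183 with DMSO (log2 difference -0.46). LARP6 and SSB had nearly equal counts in DMSO libraries, at a ratio of 0.989 ± 0.0497, whereas the ratio was 0.142 ± 0.00571 in BEZ235 libraries (log2 difference -2.80).

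**Figure D3:**
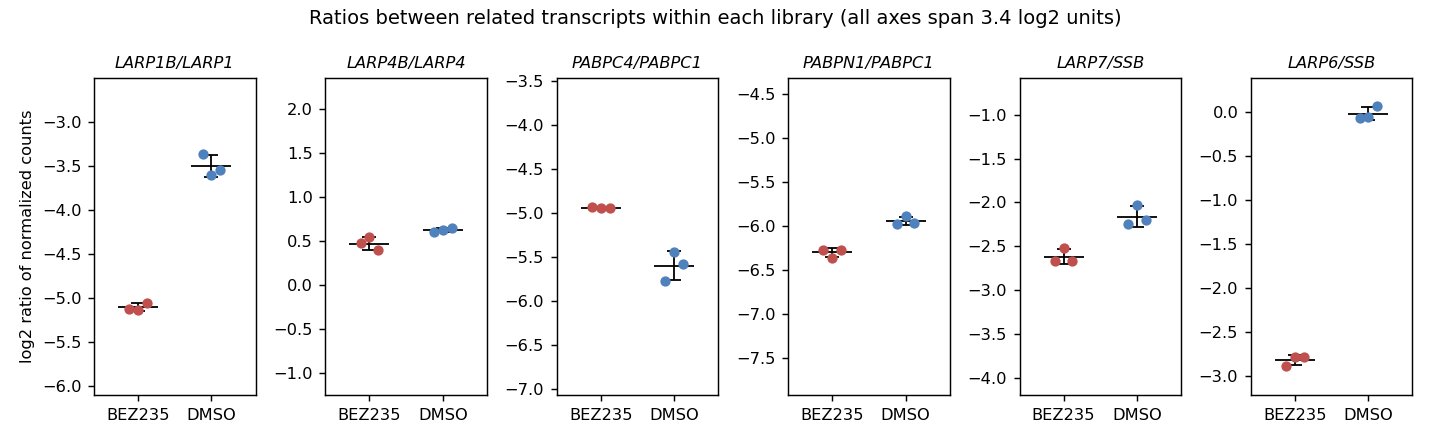
Log2 ratio of normalized counts within each library (vertical axes, all of the same span) for 6 pairs of related genes. Points are libraries, wide bars the mean and error bars the SD; LARP6/SSB differs most between the groups, by -2.80, and LARP4B/LARP4 least, by -0.16.

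Per kilobase of GENCODE exon, which allows levels to be compared between genes, PABPC1 led in both groups, with 242872 ± 14985 normalized counts per kb in BEZ235 and 131059 ± 9208 in DMSO libraries (SD, n = 3 each). SSB came next with BEZ235, at 6960 ± 475 per kb, ahead of LARP1 at 5738 ± 330, while with DMSO LARP1 at 5035 ± 53.6 was ahead of SSB at 4174 ± 185. PABPN1 had 3778 ± 196 per kb with BEZ235 and 2612 ± 97.3 with DMSO, and LARP7 had 1422 ± 114 with BEZ235 and 1170.1 ± 82.0 with DMSO. LARP4 and LARP4B had 933 ± 24.5 and 817 ± 38.9 per kb with BEZ235, and 1033 ± 59.4 and 1009 ± 63.9 with DMSO. LARP6 stood at 907 ± 30.3 per kb with BEZ235, below LARP7, and at 3798 ± 136 with DMSO, right after SSB. PABPC4 stood at 5536 ± 338 per kb with BEZ235, where its libraries overlapped those of LARP1, and at 1888 ± 115 with DMSO, below PABPN1. LARP1B was lowest in both groups, at 149 ± 4.98 per kb with BEZ235 and 399 ± 33.2 with DMSO. Neighbours in this order whose libraries overlapped were LARP1 and PABPC4, and LARP4 and LARP6, in BEZ235, and LARP7 and LARP4, and LARP4 and LARP4B, in DMSO. Exon lengths are those of GENCODE, which may differ from the deposited gene models. All exons of a gene together can be longer than the mRNA present in these cells. The order of genes with near values may depend on this, which was not tested.

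Several rows share ground with other genes, and no source used here says whether the counts kept the strand. The first 881 bases of LARP6 overlap the head of LRRC49, a gene on the opposite strand. LRRC49 had 1624, 1648 and 1480 normalized counts with BEZ235 and 2894, 3044 and 3036 with DMSO, and its log2 fold change of -0.92 (SE 0.068) had a limma adjusted p of 4.83e-07. Both rows of this head-to-head pair were thus lower in BEZ235, LARP6 by more. Whether the LRRC49 row holds reads of LARP6 from the shared bases was not tested. The 250 bases before the LARP6 start (chr15:70854158-70854407, minus strand), shown because LARP6 changed most, lie inside the LRRC49 row.
LARP6: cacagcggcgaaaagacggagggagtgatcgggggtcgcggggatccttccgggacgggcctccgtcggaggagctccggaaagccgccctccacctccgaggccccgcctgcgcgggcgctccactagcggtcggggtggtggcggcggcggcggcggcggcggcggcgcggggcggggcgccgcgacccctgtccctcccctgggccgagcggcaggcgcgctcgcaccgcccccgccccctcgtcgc
This stretch is 80.4% G or C, against a median of 58.0% over 35095 RefSeq starts. The same stretch had 76.8% in LARP4B, 76.4% in LARP1B, 68.8% in LARP1 and 59.6% in LARP7. It had 58.8% in SSB, 57.6% in PABPN1 and 53.2% in LARP4, so a high share was not particular to LARP6. Motifs were searched on both strands in the 250 bases before each of the 8 starts. CCAAT, found at 32.0% of all starts, was present for LARP4B, LARP7, SSB and PABPN1. TATAAA, found at 10.7%, was present for SSB, and TGACGTCA, found at 1.65%, was present for LARP7. CACGTG (at 6.34% of starts), TGATGNAA (at 3.15%) and GTAAACA (at 2.98%) were in none of the 8. The stretches of LARP6, LARP1B, LARP4 and LARP1 held none of these motifs.

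The end of SSB overlaps METTL5, an RNA methyltransferase gene, over 1984 bases. METTL5 had 10052, 9689.5 and 9621 normalized counts with BEZ235 and 11416, 11821 and 10814 with DMSO. It fell by 0.21 on the log2 scale (SE 0.053; limma adjusted p = 0.00422), opposite in sign to SSB.

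The row of PABPC4-AS1, an antisense RNA that lies wholly within PABPC4, also rose. It had 6628, 6739 and 6118 normalized counts with BEZ235 and 2166, 2279.8 and 2472 with DMSO, and it rose by 1.49 on the log2 scale (SE 0.068; limma adjusted p = 1.26e-08). Its counts amounted to 17.1 to 17.5% of those of PABPC4 with BEZ235 and to 17.4 to 18.5% with DMSO, and these ranges overlap. The strand of the counts is not known, so the row may hold reads of PABPC4, which was not tested. PABPN1 shares its exons with the annotated read-through gene BCL2L2-PABPN1. PABPC1 has 13 pseudogenes named for it in GENCODE, of which 1 had a row, at 0 in all libraries. The intronless copy PABPC3 was 2.25 to 3.37% of PABPC1 in BEZ235 and 2.35 to 2.81% in DMSO libraries, and reads of such copies could be split between rows.

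Other poly(A)-binding protein genes were measured as a group. Counts in this and the following lists are to be read against the 33.1% of all tested genes called higher and the 33.2% called lower. Of 8 listed, 6 passed the filter, 4 rose, 1 fell and 1 was not called, with a median log2 fold change of 0.77. ZC3H14, a nuclear zinc-finger protein that binds poly(A), had 9543 ± 445 normalized counts with BEZ235 and 5054 ± 94.6 with DMSO (SD, n = 3 each). PABPC3 had 30725 ± 8248 with BEZ235 and 16352 ± 1758 with DMSO, with a log2 fold change of 0.88 (SE 0.150). That of PABPC1 was 0.89, and whether the PABPC3 row holds reads of PABPC1 was not tested. PABPC1L, known from oocytes, fell to 821 ± 140 with BEZ235, against 2313 ± 23.6 with DMSO. PABPC4L was not called, at 2466 ± 82.2 with BEZ235 and 2557 ± 106 with DMSO (limma adjusted p = 0.49, log2 fold change -0.05, SE 0.063).

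Genes whose products bind PABPC1 were also listed. Of 12 tested, 4 were up, 7 were down and 1 was not called, and the list's median was -0.40 on the log2 scale. PAIP2, an inhibitor that displaces PABPC1 from poly(A), had 36729 ± 1290 normalized counts with BEZ235 and 79717 ± 1979 with DMSO, and it fell by 1.12 on the log2 scale (SE 0.052; limma adjusted p = 1.43e-08). The ataxin-2 relative ATXN2L fell to 32597 ± 1644, against 72039.6 ± 1608 with DMSO. The initiation factor EIF4B, whose mRNA is also in the TOP list, rose by 1.93 and the ubiquitin ligase MKRN1 by 0.56 (SE 0.072).

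Among the enzymes that make and remove poly(A) tails, calls fell in both directions. Of 17 genes of cleavage and polyadenylation 8 rose and 3 fell, against 66.3% of all tested genes called either way, with a median of 0.03. CPSF6, a subunit of cleavage factor I, had 19691 ± 490 normalized counts with BEZ235 and 8397 ± 510 with DMSO, and CPSF1 rose by 0.67 on the log2 scale (SE 0.058). CPSF2, another subunit of the cleavage complex, fell by 1.14 (SE 0.077), and the poly(A) polymerase PAPOLG fell by 0.73 (SE 0.062). Of 15 deadenylation genes 5 rose and 8 fell, with a median of -0.42; total-count scaling left 3 higher. PAN2 and PAN3 form 1 deadenylase that PABPC1 recruits, and their transcripts moved apart. PAN2 had 7654 ± 187 with BEZ235 and 14123 ± 222 with DMSO (log2 fold change -0.88, SE 0.048), while PAN3 had 2632 ± 139 with BEZ235 and 1659.6 ± 117 with DMSO (log2 fold change 0.67, SE 0.075). CNOT10, a CCR4-NOT subunit, rose by 1.03 and the CCR4-NOT-associated TNKS1BP1 had a log2 fold change of -0.71.

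The partners of LARP7 in the 7SK complex were measured with P-TEFb. Of 7 tested, 3 rose and 2 fell. HEXIM2, which inhibits P-TEFb when bound to 7SK, had 2497 ± 99.9 normalized counts with BEZ235 and 772 ± 77.8 with DMSO (log2 fold change 1.70, SE 0.088), and the 7SK capping enzyme MEPCE rose by 1.07 (SE 0.084). HEXIM1 and the kinase CDK9 fell slightly, by 0.21 (SE 0.061) and 0.17 (SE 0.057); the CDK9 call was lost without BEZ235 replicate 3 (adjusted p = 0.0716), without DMSO replicates 1 and 3 (0.0507 and 0.101) and under 3 other settings, and that of HEXIM1 was lost with limma without the trend (0.051), so that 1 or 0 genes of the list were lower there. The 7SK RNA itself (RN7SK) had 271, 264 and 348 with BEZ235 and 2240.4, 269.6 and 325 with DMSO. DMSO replicate 1 stood far above every other library for this RNA. Its log2 fold change was -0.99 (SE 0.613, limma adjusted p = 0.176) and -0.02 without DMSO replicate 1. Of the La and Ro list 7 were found and 3 tested; the nucleolar protein NCL rose by 0.54 (SE 0.062), and RO60 and PUF60 fell by 0.53 and 0.27. The Y RNA rows RNY1, RNY3, RNY4 and RNY5 were below the filter.

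LARP1 stands between mTOR complex 1 and TOP mRNAs, and genes on either side of it were listed. Of 12 genes of mTOR complex 1, its translation effectors and other TOP mRNA binders, 1 was up and 9 were down, and the list's median was -0.39 on the log2 scale. EIF4EBP1, a repressor of the cap-binding protein, had 38379 ± 1098 normalized counts with BEZ235 and 140137 ± 5808 with DMSO, and the cap-binding protein EIF4E had 3401 ± 141 with BEZ235 and 6862 ± 213 with DMSO. AKT1S1, a subunit that restrains mTOR complex 1, rose by 0.67 (SE 0.093). All 19 TOP transcripts outside the ribosomal proteins rose, 5 by at least 2-fold, with a median of 0.75 against 0.00 over all tested genes. HNRNPA1, a splicing factor, had the smallest adjusted p of these, with 372961 ± 20671 with BEZ235 and 93918 ± 1327 with DMSO. The changes of PABPC1 (0.89) and PABPC4 (1.55) had the same sign as those of these 19 genes, and that of LARP1 (0.19) was smaller. SSB (0.74), PABPN1 (0.53) and LARP7 (0.28) also had this sign, while 4 of the 10 members were lower. Whether a TOP tract had a part in these changes was not tested.

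The collagen mRNAs known to be bound by LARP6 changed in both directions. COL1A1 fell to 5078 ± 217 normalized counts with BEZ235, against 8449 ± 485 with DMSO (log2 fold change -0.73, SE 0.060, limma adjusted p = 1.16e-06). COL3A1 rose, with 29032 ± 1515 with BEZ235 and 20658 ± 734 with DMSO (log2 fold change 0.49, SE 0.055). COL1A2 was low, at 75.1 ± 3.36 with BEZ235 and 68.7 ± 17.9 with DMSO, and was not called (limma adjusted p = 0.617). Of the LARP6 partners, STRAP fell by 0.50 (SE 0.053) and vimentin (VIM) had a log2 fold change of 2.12 (SE 0.110). Of the 5 genes 2 rose, 2 fell and 1 was not called.

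**Figure D4:**
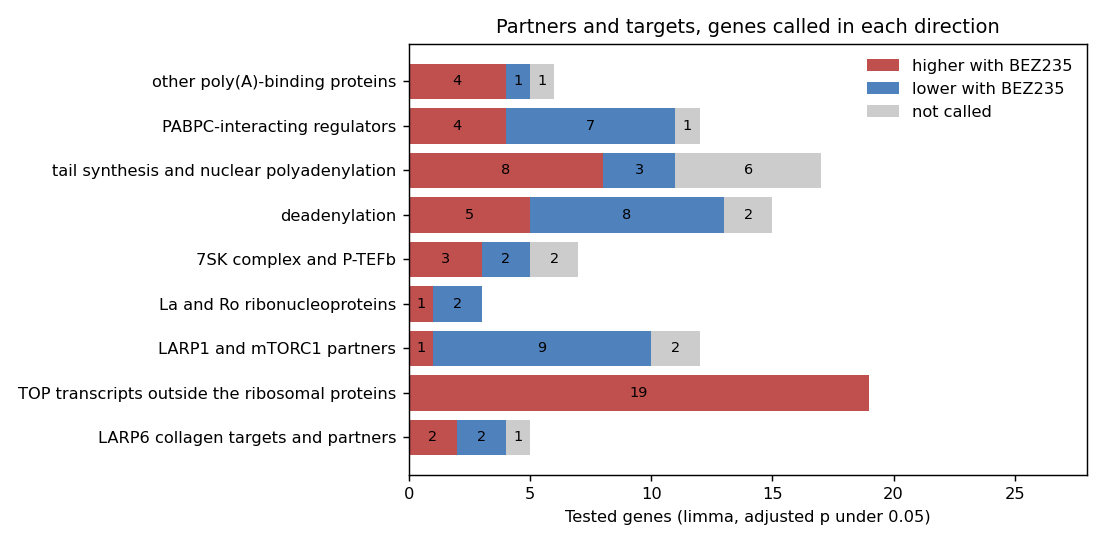
Number of tested genes (horizontal axis) in each list of partners and targets that were higher with BEZ235 (red), lower (blue) or not called (grey) by limma. All 19 TOP transcripts were higher, and of the LARP1 and mTORC1 list 9 of 12 were lower.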

How the data were processed

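Per the file headers, the authors deposited 1 table of normalized gene counts, 48114 rows of FASTDB genes, handled here as a signal. STAR 2.4.0, DESeq, SAMtools, Picard, FastQC and build hg38 are named, without roles, per the submitters' processing notes; no source used here states the counting rule or strand. Control columns were matched to the DMSO samples by number. Each deposited signal value was a whole multiple of 1 step per library (100% of values within 0.01), which gave whole reads.

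Tested were the 23923 genes that reached 10 normalized counts in 3 or more of the 6 libraries, with limma 3.58.1 in R 4.3.3 (mean-variance trend, log2(normalized count + 1), group only, two-sided, Benjamini-Hochberg over all tested genes, threshold 0.05). edgeR 4.0.16 (quasi-likelihood) and DESeq2 1.42.0 on the recovered reads were alternatives, beside other scalings, pseudocounts and filters, the replicate number as a block and leaving out each library. Ratios were compared by an exact permutation test (SciPy 1.17.1). The script was tested on simulated counts. The members, lists and pairs were chosen with earlier results of these data known. All members are named, and of each list up to 2 genes per direction with the smallest adjusted p. Counting error alone is small: members held 1205 to 1217774 reads per library.

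Exon lengths came from GENCODE release 29 (GRCh38), as the union of all annotated exons of a gene.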

Additional observations from a re-analysis of the deposited data

How the results depend on the processing

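Over 18 alternative settings, 167 of 180 values of the members kept their direction and their side of the threshold, and 13 kept the direction but were no longer called: 10 for LARP4, 2 for LARP1 and 1 for LARP7. The number of members called ran from 8 to 10, and from 8 to 10 when single libraries were left out. The number of genes called ran from 14483 to 16102. Same-numbered libraries of the groups had correlations of -0.04, 0.02 and 0.04 between their deviations from the group means, so the numbers were not taken as pairs. With the replicate block 15917 genes were called, and LARP4 was the only member whose call changed (adjusted p = 0.0564). None of 48 recomputed differences of log2 ratios changed sign. edgeR and DESeq2 called all 10 members. The median log2 fold change of all tested genes moved most with total-count scaling, by -0.10. For 37 other genes recomputed under all settings, 656 of 666 values kept their call and direction; the log2 fold change of COL1A2 ran from -0.053 (without DMSO replicate 2, where the sign was reversed) to 0.331 when single libraries were left out, and the cause was not tested. RN7SK was called with edgeR (-1.67, adjusted p = 0.0476) and without DMSO replicate 2 (-1.55, adjusted p = 0.0288). The Y RNA rows held few reads, with RNY1 at 3 to 16 per library, and the cause was not tested.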

Other observations

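LARP7 carries in its introns the miR-302 and miR-367 cluster, microRNAs of pluripotent cells. The row of the cluster's host transcript, which lies wholly inside LARP7, had 1346, 1345 and 1109.9 normalized counts in BEZ235 libraries and 1131, 1163 and 981 in DMSO libraries. It was not called (log2 fold change 0.21, SE 0.102, limma adjusted p = 0.0877), and it amounted to 21.8% of the mean LARP7 count with BEZ235 and 22.8% with DMSO. The rows of the single microRNA precursors were near 0. Since no source used here gives the strand of the counts, the host row may hold reads of LARP7, which was not tested.

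Small RNA rows inside other members were also low. SNORA55, a small nucleolar RNA inside PABPC4, had 88.8 ± 20.5 normalized counts in BEZ235 and 60.3 ± 4.13 in DMSO libraries (SD, n = 3 each; limma adjusted p = 0.101), and SNORD133 inside LARP4 had 25.0 ± 8.92 with BEZ235 and 56.7 ± 34.4 with DMSO (limma adjusted p = 0.0708, DESeq2 adjusted p = 0.0481, edgeR adjusted p = 0.0656). For SNORD133, at 96.1, as for RN7SK, DMSO replicate 1 was the highest library. It also stood apart by the mean chi-square per gene.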
